A study of Homo sapiens with 6 samples.

Results

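The MYC, MAX and MXD network is a family of transcription factors that pair through a helix-loop-helix and leucine zipper and bind the E-box, a short DNA motif. MYC paired with MAX activates genes of growth, nucleotide supply and ribosome production. MXD1, MXD3, MXD4, MXI1 and MNT also pair with MAX, but recruit SIN3 and histone deacetylases (HDACs) and repress the same kind of site, while MLX pairs with MondoA (MLXIP) and ChREBP (MLXIPL) and with some MXD proteins and MNT. Raised MYC is common in triple-negative breast cancer. The network was taken as 10 named genes, matched by NCBI Gene ID to the rows of the expression table, and 9 of the 10 were among its 16623 genes. MYCN had no row, and its level is not analysed here.

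RNA sequencing was done on MDA-MB-231, an established human triple-negative breast cancer cell line. The cells were given the solvent DMSO or the HDAC inhibitor PCI-24781 at 100 nM or 200 nM, for 24 h or 48 h, in adherent culture. Each of the 6 conditions had 1 library, so no difference between single conditions has a replicate check, and each such comparison is between libraries. A gene's level is given as FPKM, the number of sequenced fragments scaled to transcript length and to library size, which can be set side by side between genes. A change is the difference in log2(FPKM + 1), and a gene was called higher or lower at 2-fold or more on that scale if it reached 1 FPKM in at least 1 of the libraries compared. Genes that reach this level are referred to as tested. In bulk RNA, fewer cells with a transcript and less of it per cell cannot be told apart.

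The depth read from the steps between low FPKM values was about 15700000 to 18100000 fragments per library. At these depths the low values lay on average 0.125 to 0.143 from a whole number of fragments, where 0.25 would mean no steps. The fit of the steps is thus partial, and the counting intervals below, which use this depth, are approximate. On a transcript of 2 kb, 3 fragments then correspond to an FPKM of 0.0829 to 0.0955. The mesenchymal markers VIM, CD44 and AXL summed to between 2158 and 2582 FPKM, while the luminal markers ESR1, PGR and CDH1 summed to at most 0.42. Of 3 markers of other cells, PTPRC stayed between 0.76 and 1.01 FPKM, PECAM1 between 0.38 and 2.33 and PDGFRB between 0.34 and 2.66. Their sum ran from 1.53 in DMSO 24 h to 5.51 at 200 nM 48 h, and PDGFRB was itself called higher at 200 nM 24 h, with a change of 1.45. The part of these markers in the results below was not tested. The DMSO libraries differed from each other, with 2.49% of 11490 genes called higher and 0.131% called lower at 48 h, so the choice of DMSO library can turn a 48 h difference. Library labels were taken as given. If those of DMSO 48 h and 100 nM 48 h had been exchanged, each difference between them would have the opposite sign, and this was not tested.

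MYC and MXI1 were the network genes that passed 2-fold in any comparison with DMSO. MYC (NCBI Gene ID 4609, chr8:128748315-128753680 on the plus strand of hg19) is the activating partner of MAX and was far more abundant than MYCL. At 24 h, MYC had 48.70 FPKM with DMSO, 65.29 with 100 nM and 111.93 with 200 nM. The 48 h libraries had 73.36, 51.73 and 88.88 FPKM in that order. The 200 nM library was thus the highest at each time, while the 100 nM library lay above DMSO at 24 h and below it at 48 h. Among all genes of the table, MYC stood at or above 90.1% in DMSO 24 h and at or above 96.5% in the 200 nM library of that time.

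At 200 nM 24 h, MYC rose by 1.18 on the log2(FPKM + 1) scale, a ratio of 2.30 to DMSO. The approximate 95% counting interval of its log2 FPKM ratio was 1.13 to 1.28, which covers counting error only and not the variation between cultures. At 100 nM 24 h the change was 0.42, with an interval of 0.34 to 0.51 for the log2 ratio. Among the genes tested, 2.73% rose at least as far as MYC at 200 nM 24 h, while 10.3% were at least as far above DMSO as MYC was with 100 nM. At 48 h the change was -0.50 at 100 nM, where 2.71% of genes were at least as far below DMSO, and 0.27 at 200 nM. Against DMSO 24 h in place of DMSO 48 h, the changes of these libraries were 0.085 for 100 nM and 0.85 for 200 nM, so the direction at 100 nM turned with the reference. Between the doses, the step from 100 nM to 200 nM was 0.77 at each time, and this value does not use a DMSO library.

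MYCL (NCBI Gene ID 4610, chr1:40361096-40367687 on the minus strand), the MYC gene best known from small-cell lung cancer, was barely detected. Its FPKM at 24 h was 0.02 with DMSO, 0.17 with 100 nM and 0.60 with 200 nM, and the 48 h libraries had 0.13, 0.08 and 0.26 in that order. It reached an FPKM of 1 in no library and was not tested. On its shortest transcript the 24 h values of DMSO and 200 nM correspond to about 1 and 18 fragments, a ratio of 30 with an interval of 1.57 to 9.62 on the log2 scale. The 200 nM library of 48 h rests on 7 fragments beside 4 for DMSO, with an interval of -1.01 to 3.18, so the 48 h order is within counting error.

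**Figure D1:**
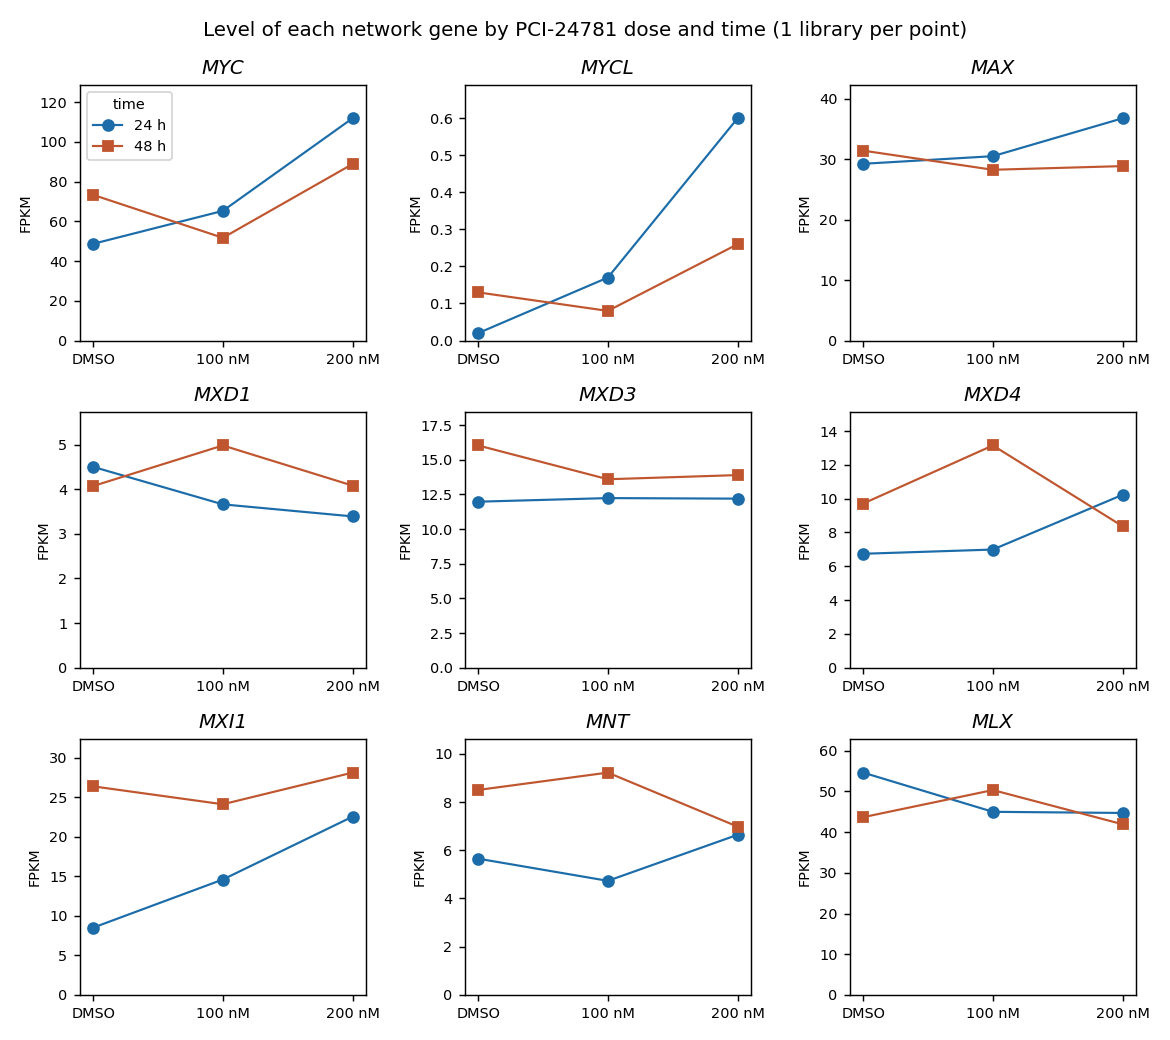
FPKM (vertical axis, from 0, a different scale in each panel) of the 9 detected network genes against PCI-24781 dose, with circles for 24 h and squares for 48 h, each point 1 library. From DMSO to 200 nM at 24 h, MYC went from 48.70 to 111.93 FPKM and MXI1 from 8.51 to 22.57, and MXI1 lay between 24.14 and 28.15 FPKM in all 3 libraries at 48 h.

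MAX (NCBI Gene ID 4149, chr14:65472819-65569262 on the minus strand), the shared partner of MYC and MXD proteins at the E-box, varied little. Its level was 29.23, 30.49 and 36.76 FPKM in DMSO, 100 nM and 200 nM at 24 h, and 31.41, 28.24 and 28.85 FPKM in the same order at 48 h. The 200 nM 24 h library was the highest, with a change of 0.32 and an interval of 0.03 to 0.63 for the log2 ratio. The other 3 changes of MAX lay between -0.15 and 0.06, with intervals that included 0. The intervals used the shortest matched MAX transcript, of 330 bases, while the longest has 2141. A longer length would give narrower intervals, which were not computed. MAX overlaps CHURC1, FNTB and their readthrough on the opposite strand, and whether strand was used in counting is not given in the sources used here.

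The level of MAX was also set against that of MYC. For each FPKM of MYC, the 24 h libraries held 0.60 FPKM of MAX with DMSO, 0.467 with 100 nM and 0.328 with 200 nM. The 48 h libraries held 0.428, 0.546 and 0.325 in that order. The ratio was therefore lowest in both 200 nM libraries.

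MXI1 (NCBI Gene ID 4601, chr10:111967363-112047123 on the plus strand), also known as MXD2, is a repressing partner of MAX. Its 24 h levels were 8.51 FPKM with DMSO, 14.61 with 100 nM and 22.57 with 200 nM, and its 48 h levels 26.41, 24.14 and 28.15 FPKM in that order. DMSO 24 h stood lowest, and all 3 libraries of 48 h lay above all 3 of 24 h. At 200 nM 24 h MXI1 rose by 1.31, with an interval of 1.22 to 1.59 for the log2 ratio, and 2.01% of genes tested rose at least as far. At 100 nM 24 h the change was 0.71, and 3.52% of genes were at least as far above DMSO.

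MXI1 also rose by 1.53 in DMSO 48 h against DMSO 24 h, where 0.548% of genes tested rose at least as far. The interval of this log2 ratio, 1.45 to 1.82, overlapped that of 200 nM 24 h against DMSO. Against DMSO 48 h it differed by -0.12 at 100 nM and 0.09 at 200 nM, and both intervals, from -0.26 to 0.00 and from -0.04 to 0.22 for the log2 ratio, reached or included 0. Against DMSO 24 h the same 48 h libraries were higher by 1.40 and 1.62. Time in culture and a property of the DMSO 24 h library cannot be told apart, since there is 1 DMSO library at each time.

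The other repressing partners moved less and did not share a direction. MXD1 (NCBI Gene ID 4084, chr2:70142173-70170077 on the plus strand), also known as MAD1 and linked to the exit from the cell cycle in differentiating cells, had 4.50, 3.66 and 3.39 FPKM at 24 h and 4.07, 4.98 and 4.08 FPKM at 48 h, in the order DMSO, 100 nM and 200 nM. The 24 h changes were -0.24 and -0.33. Those of 48 h were 0.24 and 0.0028, the last of which turned to -0.0058 under median-of-ratios scaling and to -0.11 against DMSO 24 h. It was the network gene with the lowest level apart from MYCL in DMSO 24 h, and it lay below DMSO at both doses of 24 h.

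MXD3 (NCBI Gene ID 83463, chr5:176732501-176739292 on the minus strand), unlike most MXD genes, is linked to cycling cells. It had 11.98, 12.24 and 12.20 FPKM at 24 h and 16.04, 13.60 and 13.90 FPKM at 48 h in the same order. The 24 h libraries were nearly level, with changes of 0.03 and 0.02 whose sign turned under median-of-ratios scaling, and DMSO 48 h was the highest of the 6. Its changes at 48 h were -0.22 and -0.19. MXD3 overlaps PRELID1, which had 122 to 154 FPKM, by 1460 bases on the opposite strand.

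MXD4 (NCBI Gene ID 10608, chr4:2249160-2263739 on the minus strand), a repressing partner of MAX found in many resting and differentiated cells, had 6.74, 6.99 and 10.23 FPKM at 24 h. At 48 h it had 9.71 FPKM in DMSO, 13.15 at 100 nM and 8.37 at 200 nM. The step from 100 nM to 200 nM was 0.49 at 24 h and -0.59 at 48 h, with intervals of 0.38 to 0.72 and -0.81 to -0.50 for the log2 ratio. The library with the highest level was 100 nM 48 h, in which MYC was below DMSO.

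MNT (NCBI Gene ID 4335, chr17:2287354-2304258 on the minus strand), a widely expressed repressor that opposes MYC in cycling cells, had 5.65, 4.73 and 6.64 FPKM at 24 h and 8.5, 9.22 and 6.98 FPKM at 48 h. Each 48 h library lay above each 24 h library. The dose step was 0.42 at 24 h and -0.36 at 48 h, so MNT and MXD4 had opposite dose steps at the 2 times, while the dose step of MYC was positive at both. In DMSO 48 h against DMSO 24 h, MXD3, MXD4 and MNT were higher by 0.39, 0.47 and 0.51. Against DMSO 24 h, the 48 h changes of MXD3 were therefore positive, with 0.17 and 0.20, as were those of MXD4 and MNT with 200 nM, with 0.28 and 0.26.

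MLX (NCBI Gene ID 6945, chr17:40719078-40725221 on the plus strand), the partner of the glucose-sensing factors MondoA and ChREBP, had 24 h levels of 54.64 FPKM with DMSO, 45.00 with 100 nM and 44.72 with 200 nM. Its 48 h levels were 43.68, 50.35 and 41.94 FPKM in that order. DMSO 24 h stood highest, with changes of -0.27 and -0.28 at the 2 doses of 24 h. At 48 h they were 0.20 and -0.06, and the first was -0.12 against DMSO 24 h. MLX overlaps PSMC3IP by 894 bases on the opposite strand. Its partner MLXIP stayed between 10.54 and 12.75 FPKM and MGA, a further MAX partner, between 4.88 and 5.80 FPKM, while MLXIPL stayed at or below 0.51 FPKM.

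Of the 8 network genes that reached 1 FPKM, 2 were called higher and 0 lower at 200 nM 24 h, where 4.49% of 11660 genes were called higher and 1.48% lower. These were MYC and MXI1. At 100 nM 24 h none was called, where 1.35% of genes were called higher and 0.131% lower. At 48 h none was called at either dose, where 0.0608% of genes were called higher and 0.408% lower at 100 nM, and 0.206% and 0.0600% at 200 nM. MXI1 was also called higher in DMSO 48 h, where 2.49% of genes were. The median change over the 8 genes at 24 h was 0.04 for 100 nM and 0.26 for 200 nM, and at 48 h it was -0.0097 and -0.09, while the median over all genes tested lay between -0.01 and 0.01. Both 24 h comparisons share the DMSO 24 h library and both 48 h comparisons share DMSO 48 h.

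At a lower threshold of 1.5-fold, MXI1 was also called higher at 100 nM 24 h, where 5.58% of genes were higher and 1.25% lower. MYC and MXI1 were again the only network genes called at 200 nM 24 h, where 12.5% of genes were higher and 7.62% lower. None was called at 48 h, where 0.504% were higher and 1.76% lower with 100 nM, and 1.53% and 0.463% with 200 nM. MXI1 was the only one called between the DMSO libraries, where 8.51% were higher and 1.95% lower.

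Between the doses no network gene passed 2-fold. The background there was 0.343% higher and 0.180% lower for 200 nM against 100 nM at 24 h, while the 48 h libraries had 1.71% and 0.291%. At 1.5-fold, MYC and MXI1 were higher in the 200 nM library of 24 h, beside 3.09% of genes higher and 2.15% lower. At 48 h MYC was higher and MXD4 lower with 200 nM, beside 5.60% of genes higher and 2.37% lower.

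A fit of dose and time together over the 6 libraries, which assumes the same dose effect at both times and leaves 2 residual degrees of freedom, was added after the data were seen. By limma with Benjamini-Hochberg adjustment it called no network gene. For 100 nM and for 200 nM against DMSO, 0.00% of 11893 genes were called in either direction, and 27 and 1780 genes had an unadjusted p under 0.05. A change that differs between the times is averaged by this fit and cannot be shown by it. An example is MYC at 100 nM, with 0.42 at 24 h and -0.50 at 48 h. MYC was higher by 0.73 ± 0.23 (SE) with 200 nM (limma adjusted p = 0.326), with a positive change at both times. MXI1 was higher by 0.70 ± 0.27 (SE) with 200 nM (limma adjusted p = 0.326). This averages a change of 1.31 at 24 h and one of 0.09 at 48 h, and the counting interval of the second included 0. For 48 h against 24 h, 0.462% of genes were called higher and 0.0504% lower, and MXI1 was higher by 0.84 ± 0.22 (SE), with a limma adjusted p of 0.157.

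**Figure D2:**
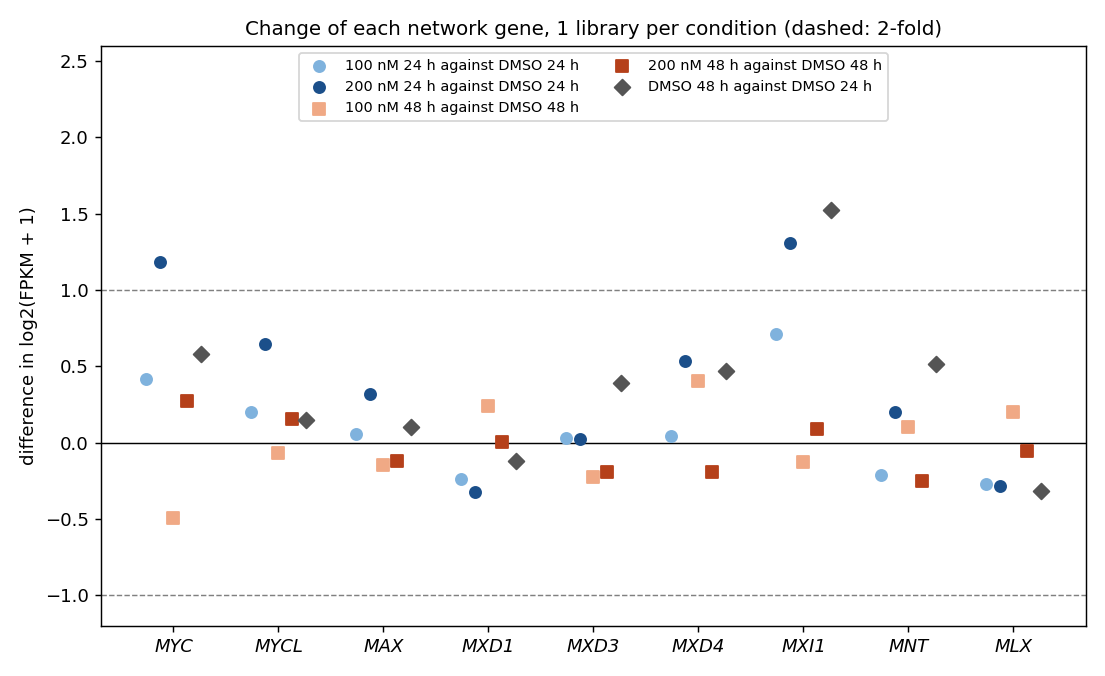
Difference in log2(FPKM + 1) (vertical axis) for each network gene, with 1 point per comparison as named in the key and dashed lines at 2-fold. MYC and MXI1 pass 2-fold at 200 nM 24 h with 1.18 and 1.31, and MXI1 passes it in DMSO 48 h against DMSO 24 h with 1.53.

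Since MYC and the repressors compete for MAX, their levels were also set side by side within each library. The summed level of MXD1, MXD3, MXD4, MXI1 and MNT at 24 h was 37.38 FPKM with DMSO, 42.23 with 100 nM and 55.03 with 200 nM, and the 48 h libraries had 64.73, 65.09 and 61.48 FPKM in that order. MXI1 made up 22.8% of this sum in DMSO 24 h, 41.0% in the 200 nM library of the same time and 37.1% to 45.8% in the 48 h libraries. The summed repressor level was thus lowest in DMSO 24 h, as was MYC, and all 3 libraries of 48 h lay above those of 24 h.

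The ratio of the MYC level to this sum at 24 h was 1.30 with DMSO, 1.55 with 100 nM and 2.03 with 200 nM. The 48 h libraries had ratios of 1.13, 0.795 and 1.45 in that order. This ratio was highest at 200 nM at each time, and 100 nM 48 h was the only library of the 6 in which the repressors together exceeded MYC. These are RNA levels, and protein levels were not measured in these files.

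**Figure D3:**
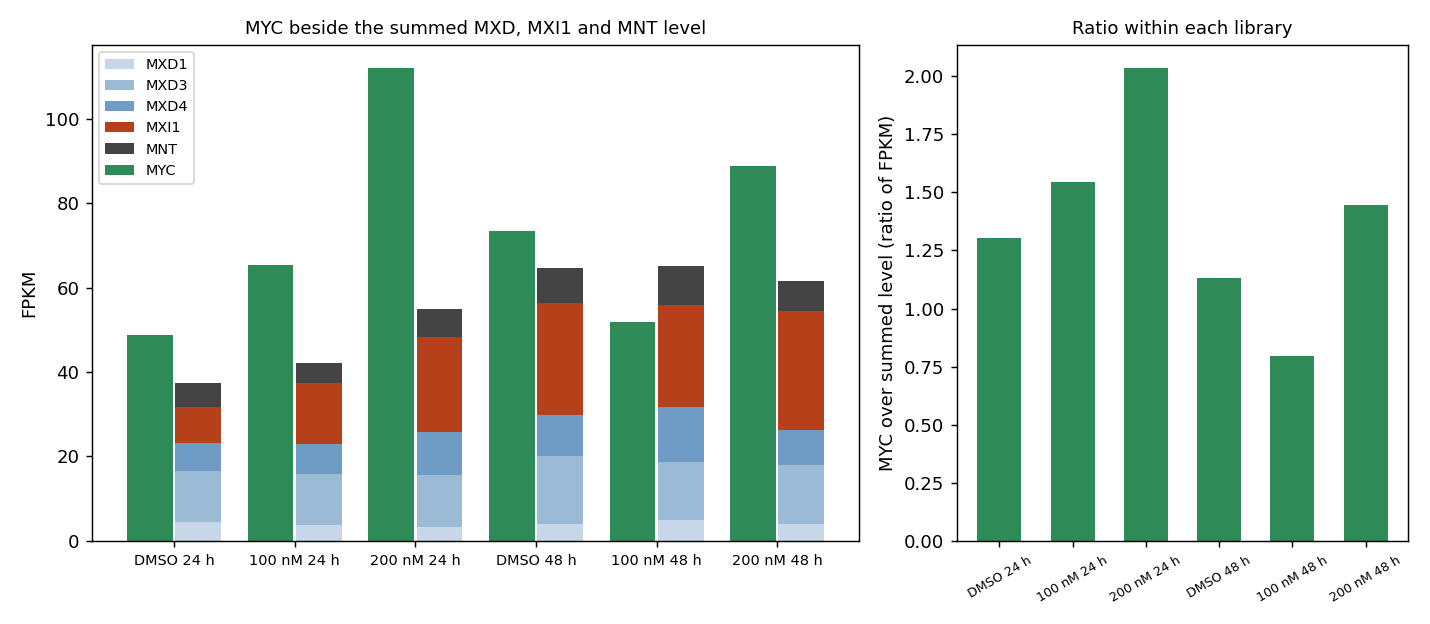
Left, FPKM of MYC (green bars) beside the stacked FPKM of MXD1, MXD3, MXD4, MXI1 and MNT in each library; right, the ratio of MYC to that stack. The ratio runs from 0.795 at 100 nM 48 h to 2.03 at 200 nM 24 h, and the MXI1 layer is 8.51 FPKM in DMSO 24 h and 28.15 at 200 nM 48 h.

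The promoters of the network genes were searched for the E-box CACGTG, which reads the same on both strands, in RefSeq windows of GRCh38.p14 that run from 250 bases before the gene start to 50 after it. Windows were at hand for 9 of the 10 genes, not for MYC. MXD4, MNT and MLX held 1 E-box each, and MYCN, MYCL, MAX, MXD1, MXD3 and MXI1 held none. Over all 27305 windows the share with an E-box was 7.43%, and over the 13287 windows of genes in the expression table it was 9.32%. The sites are shown because they are the network's own binding motif in its own genes, 5′ to 3′ on the gene's strand with the E-box in capitals.
MXD4, minus strand, chr4:2262330-2262359: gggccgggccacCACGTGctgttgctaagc
MNT, minus strand, chr17:2401236-2401265: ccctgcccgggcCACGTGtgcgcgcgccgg
MLX, plus strand, chr17:42567038-42567067: gcgggcgcgggtCACGTGggcacgccaccc
The E-box begins 238 bases before the start of MXD4, 193 before MNT and 50 before MLX. These positions are in GRCh38.p14 and are not to be set beside the hg19 positions above. A match of letters does not show that a site is bound.

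Genes that MYC activates had a median change below 0 in each comparison with DMSO. This and the further lists below were chosen with earlier results of these data known. A list of 48 genes that MYC activates had a median change of -0.15 at 200 nM 24 h. Their roles are in ribosome production, nucleotide and polyamine supply, the cell cycle and nutrient uptake. Of 47 genes tested, 35 were lower and 12 higher by any amount, which is 74.5% lower beside 48.6% of all genes tested. At 100 nM 24 h the median was -0.10, with 71.7% of 46 genes lower beside 48.1% of all genes. At 48 h the median was -0.07 at 100 nM, with 69.6% lower beside 52.4% of all genes, and -0.03 at 200 nM, with 58.7% lower beside 48.6%. Between the DMSO libraries it was -0.37, with 41 of 46 lower at 48 h, and ODC1, the rate-limiting enzyme gene of polyamine synthesis, fell by 1.08. MYC itself differed by 0.58 in that comparison.

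CAD, which starts pyrimidine synthesis, was the only gene of this list called in a comparison with DMSO. It was 1 of 47 genes tested at 200 nM 24 h, where 1.48% of all genes tested were called lower. Its 24 h levels were 35.26, 23.57 and 16.66 FPKM with DMSO, 100 nM and 200 nM, and it fell by 1.04 at 200 nM. SRM, the spermidine synthase gene, had a change of -0.84 and the cell cycle phosphatase gene CDC25A one of -0.73 in the same comparison. In DMSO 48 h against DMSO 24 h, CAD, SRM and CDC25A were also lower, with -0.82, -0.84 and -0.85. Against DMSO 48 h their changes were 0.16, -0.13 and -0.20 at 100 nM, and -0.24, -0.22 and 0.10 at 200 nM. The largest positive values at 200 nM 24 h were 0.99 for CCND2 (cyclin D2), which went from 0.06 to 1.11 FPKM, 0.90 for the glucose transporter SLC2A1 and 0.86 for the amino acid transporter SLC7A5. SLC7A5 had 100.11, 107.07 and 182.99 FPKM at 24 h and 51.71, 57.78 and 64.50 FPKM at 48 h. No gene of the list was called higher at either dose or time on the log2(FPKM + 1) scale, which understates the ratio of a low gene such as CCND2.

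An E-box was present in 14 of 39 promoter windows of the MYC-activated list, or 35.9%, beside 9.32% of the windows of all genes in the table. This share uses no expression value and describes only the choice of genes for the list. At 200 nM 24 h the median change was -0.30 over the 13 tested genes with an E-box and -0.22 over the 25 without, with 11 and 18 genes lower. At 100 nM 24 h these medians were -0.09 and -0.10. In DMSO 48 h against DMSO 24 h they were -0.42 and -0.39. Genes with and without the motif thus had medians below 0 in each of these comparisons.

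A list of 9 genes that MYC represses held 5 genes with sufficient expression. All 5 were higher at both doses of 24 h, beside 51.6% and 51.2% of all genes tested. Their medians were 0.77 and 1.76. Over all 9 genes with no level filter these medians were 0.29 and 0.43, and with TPM they were 0.78 and 1.39. CDKN1A, which encodes the cell cycle inhibitor p21 and is a known responder to HDAC inhibitors, had 13.18, 30.61 and 48.84 FPKM at 24 h and 44.25, 25.81 and 52.88 FPKM at 48 h. It was called higher at both doses of 24 h, with changes of 1.16 and 1.81. The matrix glycoprotein gene THBS1 was also called at both, with 1.13 and 1.78, and the stress-induced gene NDRG1 at 200 nM, with 1.76. Thus 2 of the 5 genes were called higher at 100 nM 24 h and 3 at 200 nM 24 h, beside 1.35% and 4.49% of all genes tested. The list was chosen with earlier results of these data known, so these counts are a description and no test of it. At 48 h, 2 of the 5 genes were higher at 100 nM and all 5 at 200 nM, beside 47.2% and 51.0% of all genes tested. The 48 h medians were -0.38 at 100 nM and 0.25 at 200 nM. The first of these turned to 0.17 against DMSO 24 h. The changes of CDKN1A and THBS1 at 100 nM 48 h were -0.76 and -0.71, and against DMSO 24 h they were 0.92 and -0.15. Between the DMSO libraries, 4 of the 5 genes were higher at 48 h, with a median of 0.56, beside 49.6% of all genes tested. NDRG1 rose by 2.38 and CDKN1A by 1.67 there, so NDRG1 and CDKN1A, like MXI1, had low levels in DMSO 24 h. CDKN1B and GADD45A differed by 0.35 and 0.43 at 200 nM 24 h, and CDKN2B, CEBPA, GAS1 and NDRG2 stayed below an FPKM of 1.

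**Figure D4:**
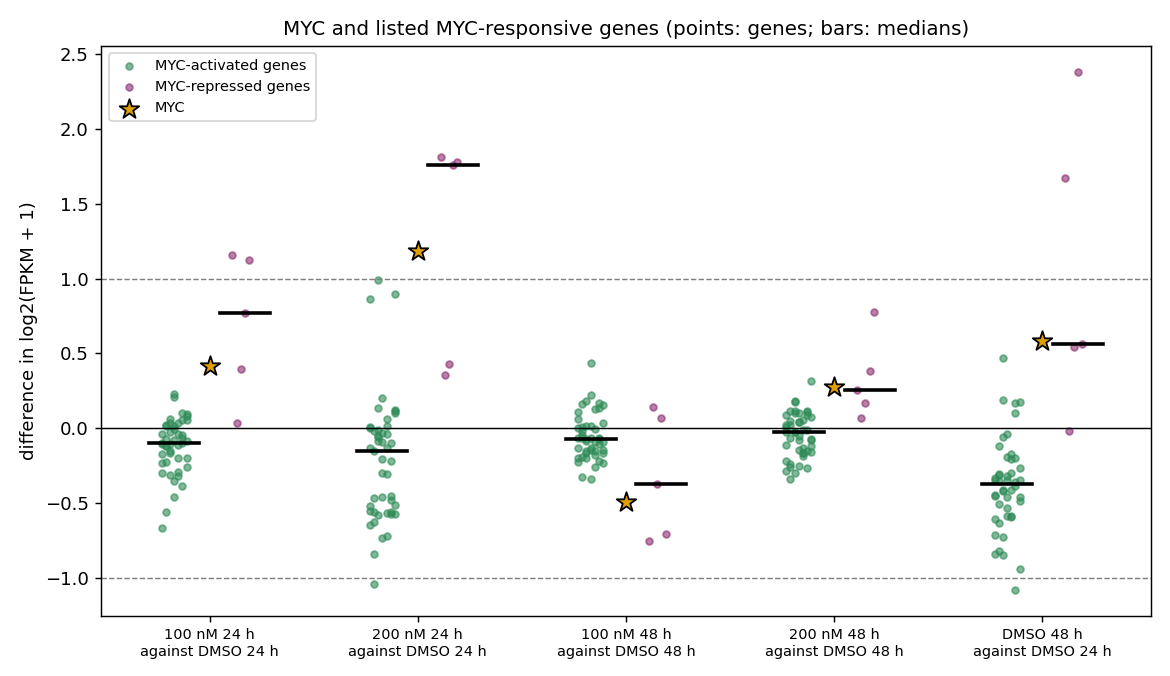
Difference in log2(FPKM + 1) (vertical axis) of the tested MYC-activated genes (green) and MYC-repressed genes (purple) in each comparison, 1 point per gene, with black bars at the medians and MYC as a star. At 200 nM 24 h MYC is at 1.18, the activated genes have a median of -0.15 and the repressed genes one of 1.76.

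Of 14 cofactors of MYC and MXD proteins, none was called, and 7 were higher and 7 lower by any amount at 200 nM 24 h. WDR5, a chromatin adaptor for MYC, had the lowest change with -0.72 and went from 38.75 to 23.20 FPKM, followed by the corepressor NCOR1 with -0.42 and the MYC-binding factor HCFC1 with -0.35. The highest were the helicases RUVBL1 with 0.34 and RUVBL2 with 0.31, and ZBTB17, which encodes MIZ1, with 0.25. In DMSO 48 h against DMSO 24 h, WDR5, NCOR1 and HCFC1 were lower as well, with -0.73, -0.34 and -0.28. RUVBL1 and RUVBL2 had -0.21 and -0.15 there, and ZBTB17 had 0.18. WDR5 differed from DMSO 48 h by 0.15 at 100 nM and -0.09 at 200 nM of that time. SIN3A, the corepressor that MXD proteins bind, had 15.61 to 18.49 FPKM in the 6 libraries.

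A list of 12 genes for MYC protein turnover mixed genes that protect MYC with genes that target it, so its median gives no direction for MYC stability. SKP2, a ubiquitin ligase subunit that targets MYC and p27, was called lower at 200 nM 24 h, where 1.48% of all genes tested were. It had 20.89, 16.44 and 9.44 FPKM at 24 h and fell by 1.07 at 200 nM. CIP2A, which protects MYC from a phosphatase, had a change of -0.66 and the deubiquitinase gene USP28 one of -0.55. BIN1, a MYC-interacting adaptor gene, had the highest change with 0.73, followed by the MYC kinase gene GSK3B with 0.40. In DMSO 48 h against DMSO 24 h, SKP2, CIP2A and USP28 had changes of -0.37, -0.50 and -0.21. BIN1 and GSK3B had 0.66 and 0.008 in that comparison. The median of the list was -0.21 at 200 nM 24 h and -0.09 at 100 nM 24 h, with 8 and 7 of 12 genes lower. Of all genes tested, 48.6% and 48.1% were lower in these comparisons. Between the DMSO libraries the median was also -0.21, with 8 of 12 genes lower at 48 h. At 48 h the medians were 0.02 at 100 nM and -0.10 at 200 nM, the first of which turned to -0.098 against DMSO 24 h.

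The 4 genes listed for MLX and MondoA, none of them called in a comparison with DMSO, had a 24 h median of -0.05 with 100 nM and 0.50 with 200 nM, and 48 h medians of 0.18 and 0.26. TXNIP, an inhibitor of glucose uptake, had 68.16, 67.18 and 131.67 FPKM at 24 h and 160.62, 216.60 and 234.04 FPKM at 48 h. Its change at 200 nM 24 h was 0.94, and that of the related gene ARRDC4 was 0.73. At 200 nM 24 h ARRDC2 had 0.28 and KLF10 had -0.42. Between the DMSO libraries TXNIP was called higher at 48 h, with 1.22, where 2.49% of all genes tested were. ARRDC2, ARRDC4 and KLF10 had 0.60, -0.06 and -0.25 in that comparison.

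Genes with a pattern most like MYC were ranked by Pearson's r of log2(FPKM + 1) over the 6 libraries, among 5485 other genes with sufficient level and range. The values come from the same 6 libraries for every gene, so r is a description with no test. RFPL4A has close relatives in the genome whose reads it could share. The first 5 were NPTN (r = 0.996), RFPL4A (0.994), MLF1 (0.991), DUSP1 (0.991) and BBS7 (0.990). DUSP1, a MAP kinase phosphatase gene of the immediate early response, had 21.99, 27.69 and 47.68 FPKM at 24 h and 29.93, 24.30 and 37.10 FPKM at 48 h. For MXI1, the network gene with the widest range, the first 5 included PPL (0.998), SLC25A23 (0.996), RNASE4 (0.995) and POLD4 (0.994). MYC and MXI1 themselves had r = 0.580.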

How the data were processed

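RNA from MDA-MB-231 cells was sequenced as 6 libraries, 1 for each condition. The authors deposited FPKM per gene, rounded to 2 decimals, and the submitters' processing notes name hg19, Bowtie2 and RSEM. Isoforms are summed within a gene. Symbols were matched by NCBI Gene ID to RefSeq GRCh38.p14 (16585 of 16623 genes). Changes were differences in log2(FPKM + 1), which understates low genes, called at 2-fold where at least 1 library reached 1 FPKM, and calls were tested on simulated data. Single conditions were compared without a test, since each has 1 library. A limma fit of dose and time without their interaction, with a mean-variance trend, was added after the data were seen. Depth was inferred from whole steps of low values in 251 to 300 single-transcript genes of 500 to 1500 bases (GENCODE 29). Counting intervals (Clopper-Pearson) used the shortest matched transcript. The members and lists were chosen with earlier results of these data known. Named genes were all members, MGA, MLXIP and MLXIPL, up to 3 genes per direction and list by change at 200 nM 24 h, every list gene called at 2-fold in a comparison with DMSO, and the 5 genes most like MYC and most like the member of widest range. SIN3A, ODC1, CDKN1B, GADD45A and the low MYC-repressed genes were named after their values were seen. Some genes that the rule names are not reported here. Alternatives were pseudocounts of 0.1 and 0.01, a 1.5-fold threshold, both-library and no filters, TPM, median-of-ratios scaling and DMSO 24 h as reference at 48 h. Python 3.11.15, numpy 2.4.6, pandas 2.3.3, scipy 1.17.1 matplotlib 3.10.9, R 4.3.3 and limma 3.58.1 were used.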

Additional observations from a re-analysis of the deposited data

Results flagged for a closer look

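MYC at 100 nM had a change of 0.42 at 24 h and of -0.50 at 48 h, opposite directions at the 2 times. Had the DMSO and 100 nM labels of 48 h been exchanged, the second value would have the opposite sign, and this was not tested. MAX was higher at both doses of 24 h (0.059 at 100 nM and 0.32 at 200 nM) and lower at both doses of 48 h (-0.15 and -0.12). MXD1 was lower at both doses of 24 h (-0.24 and -0.33) and not lower at 48 h (0.24 and 0.0028), the last value being within counting error of 0 and turning sign under median-of-ratios scaling. MXD3 had 0.029 and 0.024 at 24 h, which also turned sign under that scaling, and -0.22 and -0.19 at 48 h. None of these differences between times was tested, since there is 1 library per condition, and the DMSO library of each time is shared by both doses.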

How the results depend on the processing

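The labels give no replicates to pair, but each dose has a library at both times. Time was also taken as replicate block (dose and time fitted by limma without their interaction, added after the data were seen). This fit called 0 network genes with 200 nM, against 2 by fold at 200 nM 24 h. No other count of called network genes differed. The fit calls by an adjusted p under 0.05 over both times, not by fold at 1 time. With either dose it called 0.00% of 11893 genes, so its 0 is not particular to the network genes. With pseudocounts of 0.1 and 0.01 and with TPM, none of the 36 network gene changes turned sign. With median-of-ratios scaling 4 did, those of MXD3 at both doses of 24 h, MXD4 at 100 nM 24 h and MXD1 at 200 nM 48 h, all within 0.05 of 0. MYC and MXI1 were called higher at 200 nM 24 h by fold with both pseudocounts, TPM, median-of-ratios scaling and either filter, and TPM, which puts MYCL above the level filter, added MYCL with 1.22. A 1.5-fold threshold added 1 gene at 100 nM 24 h, MXI1. With DMSO 24 h as reference, 1 network gene, MXI1, was called higher at 100 nM 48 h and at 200 nM 48 h, with 1.40 and 1.62. The share of all genes called in these comparisons is not given here. DMSO 48 h against DMSO 24 h had 2.49% of genes called higher, MXI1 among them. With DMSO 24 h as reference, 9 of 18 changes turned sign. The median of the MYC-activated genes was then -0.49 and -0.48 and that of the MYC-repressed genes 0.17 and 1.34 at the 2 doses. Without a filter, which adds 4 genes near 0, the median of the MYC-repressed genes at 24 h was 0.29 for 100 nM and 0.43 for 200 nM, and -0.024 for 100 nM of 48 h. With TPM it was 1.39 at 200 nM 24 h. The limits used for a shift of a median (0.1) and for opposite changes at 1 dose (0.25) were set with the data in hand. The inferred depth limits MYCL and MLXIPL, whose lowest values rest on a few fragments.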
